A study of Mus musculus with 18 samples.

Results

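Adipogenic transcription factors are the DNA-binding proteins that commit a mesenchymal cell to the fat lineage and then run the fat cell programme. The genes described here were 10 named mouse genes, Cebpa, Cebpb, Cebpd, Pparg, Rxra, Zfp423, Ebf1, Ebf2, Klf4 and Klf15, taken by symbol, with no measured value in the rule. The choice was made with earlier results of these data known. All 10 genes were present among the 20325 genes of each table, and all 10 passed the filter on low values in each comparison. In the classical cascade, Klf4 and the early C/EBP proteins encoded by Cebpb and Cebpd act soon after an adipogenic stimulus. They induce Cebpa and Pparg, which maintain one another's expression and activate fat cell genes, and PPARγ binds DNA as a heterodimer with RXRα, encoded by Rxra. Zfp423 and the EBF proteins mark or promote commitment upstream of Pparg, and Klf15 is induced later and promotes Pparg expression.

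The study profiled C3H10T1/2, a multipotent mesenchymal line from mouse embryos, grown in serum-containing medium with no adipogenic stimulus named in the labels, by RNA-seq of TruSeq libraries. There were 12 libraries of cultured cells at passage 10 to 15 and 6 of tumors. Cells carrying FLAG-HA-tagged wild-type histone H3.3 (H3.3 WT, n = 2) were the reference for cells with tagged H3.3K36M (n = 2) and tagged H3.1K36M (n = 2), in which lysine K36 of the histone is replaced by methionine. No library carried tagged wild-type H3.1. In H3.1K36M against H3.3 WT cells the mutation therefore cannot be told apart from the histone variant. Parental C3H10T1/2 cells received a scramble siRNA (control siRNA, n = 3) or siRNAs against the H3K36 methyltransferase genes Nsd1, Nsd2 and Setd2 together (HMT siRNA, n = 3). Tumors (n = 6) came from 2000000 H3.3K36M cells placed with Matrigel under the skin of both flanks of female athymic SCID mice aged 6 to 8 weeks, and were taken 5 to 6 weeks later. One line stood for each histone, host cells and injected cells are both mouse, and tumors may share a mouse. Nothing in the labels gives separate cultures for the replicates of a group, so the p-values reflect only how far these libraries vary, and that variation may be technical.

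Depth was 13993307 to 56041797 estimated reads per library. The knockdown was visible in its targets, since Setd2 was at 3114 to 3401 in control siRNA cells and 1063 to 1224 in HMT siRNA cells, and the log2 fold changes of Nsd1 and Whsc1 (the symbol listed for Nsd2) were -0.52 and -0.59. All 8 mesenchymal markers were at 10 or more in every group. Of 6 defining markers of mature fat cells, none was tested in any culture comparison, and Lep was at 0 in every cultured library, so the cultures were not fat cells by these genes. Among genes with 1 to 20 estimated reads, the share of whole numbers was 76.4 to 79.2% in the 4 H3.3 WT and H3.3K36M cell libraries and 84.1 to 86.6% in the other 14 libraries. No batch is named in the labels. Any batch behind this line cannot be told apart from the groups where H3.3 WT or H3.3K36M cells are compared with H3.1K36M cells, tumors or siRNA cells. Comparisons of H3.3K36M with control siRNA cells below cross this line, and also set a tagged line beside parental cells.

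The promoter windows of 3 members are shown as examples: Cebpa and Zfp423 had the most negative fold changes among the members in both K36M lines, and Pparg, at its downstream start, fell in one of these lines and not in the other by the test. Each window is the 250 bases before a RefSeq start on the GRCm38.p6 build, read 5′ to 3′ on the strand of the gene, with capitals for matches on either strand to the C/EBP motif TTGCNNAA. Cebpa lies at chr7:35119043-35119292 (plus strand), Zfp423 at chr8:87959596-87959845 (minus strand, upstream start) and Pparg at chr6:115421816-115422065 (plus strand, the start of the fat-enriched Pparg2 form).
Cebpa: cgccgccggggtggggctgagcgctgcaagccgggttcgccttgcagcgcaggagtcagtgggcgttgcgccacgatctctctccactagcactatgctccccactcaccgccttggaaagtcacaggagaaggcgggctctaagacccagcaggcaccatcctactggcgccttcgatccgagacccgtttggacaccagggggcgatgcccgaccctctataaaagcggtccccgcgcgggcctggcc
Zfp423: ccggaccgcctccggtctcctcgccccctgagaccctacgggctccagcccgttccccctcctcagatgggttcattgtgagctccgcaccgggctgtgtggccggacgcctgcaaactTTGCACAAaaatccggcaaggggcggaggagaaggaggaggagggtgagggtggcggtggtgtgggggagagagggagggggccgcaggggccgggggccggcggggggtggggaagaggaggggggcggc
Pparg: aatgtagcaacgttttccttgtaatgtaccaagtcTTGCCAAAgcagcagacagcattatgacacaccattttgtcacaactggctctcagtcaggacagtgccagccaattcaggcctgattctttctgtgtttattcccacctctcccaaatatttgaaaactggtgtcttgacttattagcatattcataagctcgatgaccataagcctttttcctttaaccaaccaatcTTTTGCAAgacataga
The Pparg window held 2 matches, beginning 215 and 16 bases before the start, the Zfp423 window 1 match beginning 131 bases before it, and the Cebpa window none. Of the 32851 RefSeq windows of this length, 9.56% held the C/EBP letters. Among the 13 windows found for 8 members, 2 held them, 2 held the EBF letters CCCNNGGG (11.8% of all windows) and 8 held the KLF letters CCGCCC (32.7% of all windows). The match describes letters only, and expression was counted per gene on another build, so Pparg forms were not separated.

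Levels below are normalised estimated counts, fold changes are on the log2(value + 1) scale with their standard errors, and a gene was called at a Benjamini-Hochberg adjusted p below 0.05 in limma. In H3.3K36M against H3.3 WT cells, 7 members fell, 1 rose and 2 were not called, where 70.8% of the 13186 genes tested were called, 37.5% higher and 33.3% lower. In HMT against control siRNA cells, 4 rose and 4 fell, with 65.4% of genes called, 32.6% higher and 32.8% lower. In H3.1K36M against H3.3 WT cells, 7 fell and 1 rose, with 79.5% called, 41.1% higher and 38.4% lower. The count of 8 called members of 10 was near the background in each of these comparisons and says nothing particular about the members. The members' median log2 fold change was -0.83 in H3.3K36M cells, -0.78 in H3.1K36M cells and -0.27 after HMT siRNA, beside 0.02, 0.02 and -0.0018 over all genes tested. Both K36M comparisons share the H3.3 WT libraries. Since the members were chosen with earlier results of these data known, their medians describe these genes and do not test them as a set.

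**Figure D1:**
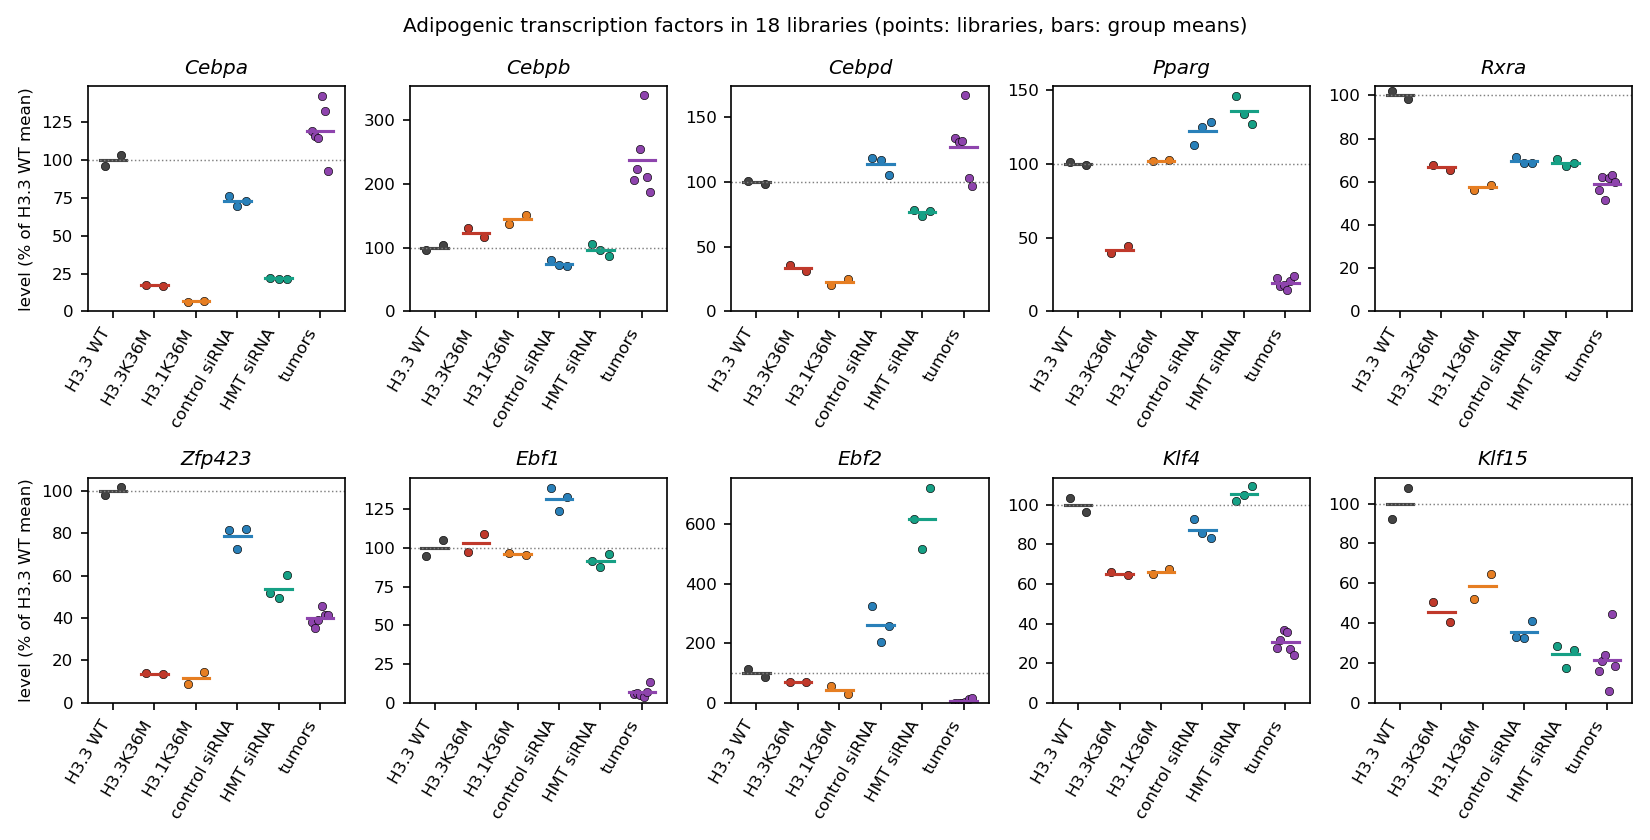
Level of each member in every library, as a percentage of the H3.3 WT mean of the same table (vertical axis; one panel per gene, each with its own scale from 0; siRNA groups from the siRNA table, the others from the xenograft table). Points are libraries and bars are group means; Cebpa averaged 17.2% in H3.3K36M, 6.61% in H3.1K36M and 21.7% in HMT siRNA cells, and 120% in tumors.

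Cebpa, which encodes C/EBPα and is needed for white fat and for insulin sensitivity of fat cells, fell in both K36M lines and after the knockdown of the methyltransferases. It was at 1275 and 1361 in H3.3 WT cells and at 235 and 229 in H3.3K36M cells, a log2 fold change of -2.50 ± 0.07 (adjusted p = 1.9e-16). It was at 1002, 921 and 964 in control siRNA cells and at 292, 283 and 285 in HMT siRNA cells, a change of -1.74 ± 0.06 (adjusted p = 8.96e-16). No mutant or knockdown library overlapped its reference, and the libraries within each altered group differed little. In the xenograft table, H3.1K36M cells had 115 and 119.9 against 1715 and 1842 in H3.3 WT cells, a change of -3.91 ± 0.07 (adjusted p = 7.76e-16). H3.1K36M cells were lower than H3.3K36M cells (310 and 302) by a log2 change of -1.37 ± 0.07 (adjusted p = 6.19e-10), so the order among cultures ran from H3.3 WT through H3.3K36M to H3.1K36M with no overlap. The response to H3.3K36M was larger than that to HMT siRNA, with a difference of -0.76 ± 0.09 (adjusted p = 7.78e-07). Part of this difference lay in the references, since control siRNA cells were at 73.0% of the H3.3 WT mean. H3.3K36M cells were at 17.6% of that mean and HMT siRNA cells at 21.7%.

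Cebpb and Cebpd, the early C/EBP genes that precede Cebpa in differentiation, moved in opposite directions. Cebpb was at 995 and 1063 in H3.3 WT cells and 1373 and 1227 in H3.3K36M cells, a rise of 0.34 ± 0.08 (adjusted p = 0.00184). With HMT siRNA it was at 1093, 997 and 893 against 833, 741 and 735 in control siRNA cells, a rise of 0.37 ± 0.07 (adjusted p = 0.000143). Against control siRNA cells, the H3.3K36M rise of Cebpb was 0.76, since control siRNA cells were at 74.8% of the H3.3 WT mean. Neither pair of groups overlapped, and the difference between the responses was -0.03 with a 95% interval of -0.26 to 0.20 (adjusted p = 0.829). Cebpb also rose in H3.1K36M cells, to 1910 and 2106 against 1338 and 1440 in H3.3 WT cells (0.53 ± 0.06, adjusted p = 1.33e-06). Its difference between H3.1K36M and H3.3K36M cells, 0.23 ± 0.06 (adjusted p = 0.00399), was not called with equal library totals (0.0539), without H3.3K36M replicate 2 (0.0742), without H3.1K36M replicate 2 (0.0977) or without trended, robust moderation (0.0769).

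Cebpd was at 835 and 811 in H3.3 WT cells and 304 and 262 in H3.3K36M cells, a fall of -1.54 ± 0.08 (adjusted p = 2.16e-12). HMT siRNA cells had 648, 606 and 640.4 against 976, 962 and 868 in control siRNA cells, a smaller fall of -0.56 ± 0.06 (adjusted p = 1.43e-07). The groups were apart in both comparisons, and the responses differed by -0.98 ± 0.10 (adjusted p = 1.49e-07). In H3.1K36M cells Cebpd was at 228 and 274 against 1124 and 1099 in H3.3 WT cells (-2.15 ± 0.09, adjusted p = 1.04e-11), and it was lower than in H3.3K36M cells by a change of -0.57 ± 0.09 (adjusted p = 5.8e-05). Cebpd therefore followed the order of Cebpa among the histone lines, while Cebpb ran the other way.

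The ratio of Cebpb to Cebpa within a library does not depend on scaling and shows these directions together. It was 0.780 to 0.781 in H3.3 WT, 0.763 to 0.832 in control siRNA, 3.13 to 3.74 in HMT siRNA, 5.36 to 5.84 in H3.3K36M and 16.6 to 17.6 in H3.1K36M cells. Both reference groups lay close to one another, and every altered culture lay above both. These are ratios of estimated counts, not of levels per length, so they compare groups and not the genes' abundance.

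**Figure D2:**
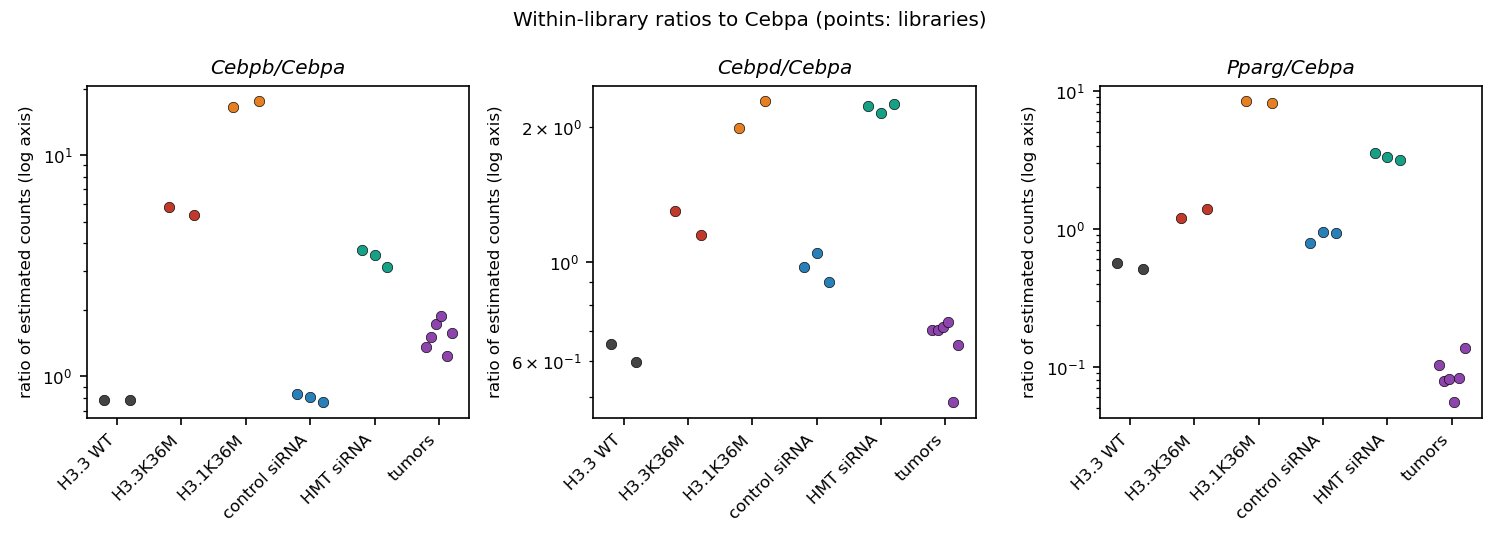
Ratio of Cebpb, Cebpd and Pparg to Cebpa in each library (vertical log axis, ratio of estimated counts), by group; points are libraries. Cebpb to Cebpa was at most 0.832 in the reference cultures and at least 3.13 in the altered cultures, and the tumors lay between 1.24 and 1.87.

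Pparg, the nuclear receptor gene required for fat cell formation, separated the settings. It was at 715 and 694 in H3.3 WT cells and 283 and 320.0 in H3.3K36M cells, a fall of -1.22 ± 0.08 (adjusted p = 1.18e-10). In H3.1K36M cells it was at 970 and 972 against 962 and 939.9 in H3.3 WT cells, a change of 0.03 with a 95% interval of -0.11 to 0.17 (adjusted p = 0.675). The K36M lines thus differed from each other, by 1.29 ± 0.06 (adjusted p = 3.08e-10), with no overlap. HMT siRNA cells had 1029, 940.1 and 893 against 794, 878 and 903 in control siRNA cells, and these groups overlapped. That change of 0.15 ± 0.06 (adjusted p = 0.0464) lost its call in 9 of 18 alternatives, with adjusted p from 0.0256 to 0.261; the losses included leaving out any of HMT siRNA replicates 1 and 2, control siRNA replicate 1 and H3.3 WT replicates 1 and 2. The response to H3.3K36M lay below that to HMT siRNA by -1.38 ± 0.10 (adjusted p = 2.16e-09). The ratio of Pparg to Cebpa was 0.510 to 0.561 in H3.3 WT, 0.792 to 0.954 in control siRNA, 1.203 to 1.399 in H3.3K36M, 3.13 to 3.52 in HMT siRNA and 8.11 to 8.42 in H3.1K36M cells.

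Rxra, the partner of PPARγ in its DNA-bound form, changed by less than 1 log2 unit in every comparison. It was at 3931 and 3768 in H3.3 WT cells and 2669.7 and 2580.3 in H3.3K36M cells, a fall of -0.55 ± 0.04 (adjusted p = 2.45e-09), and at 2920.2 and 3047 in H3.1K36M cells against 5289.7 and 5101 in H3.3 WT cells, a fall of -0.80 ± 0.04 (adjusted p = 3.66e-11). The siRNA groups overlapped, 2635 to 2757 in control and 2583 to 2715 in HMT siRNA cells, with a change of -0.02 and a 95% interval of -0.09 to 0.06 (adjusted p = 0.714). Control siRNA cells were thus already at 69.6% of the H3.3 WT mean, beside 68.2% in H3.3K36M cells of the same table. With control siRNA cells as the reference, an alternative chosen after seeing the data, the H3.3K36M change of Rxra was -0.03 (adjusted p = 0.527).

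Zfp423, a zinc finger gene that marks committed preadipocytes and promotes Pparg expression, had the most negative fold change of the members in H3.3K36M cells. It was at 143 and 147 in H3.3 WT cells and 20.6 and 20.1 in H3.3K36M cells, a change of -2.77 ± 0.16 (adjusted p = 1.75e-11). HMT siRNA cells had 75.3, 71.6 and 87.7 against 118, 105 and 119 in control siRNA cells, a change of -0.55 ± 0.13 (adjusted p = 0.00125). Neither pair overlapped, and the responses differed by -2.23 ± 0.21 (adjusted p = 3.9e-08). In H3.1K36M cells Zfp423 was at 17.5 and 28.8 against 192 and 199 in H3.3 WT cells (-3.07 ± 0.23, adjusted p = 9.26e-09). These values overlapped those of H3.3K36M cells (27.2 and 26.6), and the difference of -0.25 (95% interval -0.74 to 0.24) was not called. It was called without H3.1K36M replicate 2 (-0.59, adjusted p = 0.0441).

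Ebf1, a helix-loop-helix factor of B cells and of fat precursors, did not pass the test in either K36M line. It was at 1235 and 1356 in H3.3 WT cells and 1293 and 1441 in H3.3K36M cells, overlapping values with a change of 0.08 (95% interval -0.06 to 0.22, adjusted p = 0.313). The change in H3.1K36M cells was -0.05 (95% interval -0.17 to 0.07, adjusted p = 0.417). HMT siRNA cells, at 1189.9, 1136 and 1242, lay below control siRNA cells at 1798, 1605 and 1724, a fall of -0.52 ± 0.05 (adjusted p = 4.96e-08). The difference between the H3.3K36M and HMT siRNA responses was 0.60 ± 0.09 (adjusted p = 1.11e-05), the single positive difference called among the members. Control siRNA cells were at 132% of the H3.3 WT mean, and against them H3.3K36M cells were lower by -0.32 (adjusted p = 0.000108).

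Ebf2, a relative of Ebf1 known from brown and beige fat precursors, rose with HMT siRNA. It was at 170.4, 143 and 199 in HMT siRNA cells against 89.5, 56.5 and 70.9 in control siRNA cells, a change of 1.24 ± 0.18 (adjusted p = 6.47e-06) with no overlap. H3.3 WT cells had 31.8 and 23.5 and H3.3K36M cells 19.7 and 19.4, which did not overlap, but the change of -0.46 (95% interval -0.94 to 0.01, adjusted p = 0.0754) was not called. Without H3.3 WT replicate 1 it was -0.25 (adjusted p = 0.423). It passed the threshold under quantile normalisation (-1.12, adjusted p = 0.00026), without H3.3 WT replicate 2 (-0.67, adjusted p = 0.0364), without control siRNA replicate 2 (adjusted p = 0.0495), with the replicate block (adjusted p = 0.0468) and against control siRNA cells (-1.81, adjusted p = 2.42e-07). These levels stood for 22 to 44.9 estimated reads per library. The 2 responses differed by -1.70 ± 0.29 (adjusted p = 7.38e-05). In H3.1K36M cells Ebf2 was at 21.1 and 10.5 against 42.7 and 31.8 in H3.3 WT cells, a fall of -1.25 ± 0.32 (adjusted p = 0.00255). Without H3.1K36M replicate 2 that fall was -0.78 (adjusted p = 0.0477).

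Klf4 and Klf15 are Krüppel-like factors placed early and late in the cascade. Klf4 was at 5811 and 5394 in H3.3 WT cells and 3786 and 3697 in H3.3K36M cells (-0.58 ± 0.05, adjusted p = 1.01e-08), and at 4925 and 5098 in H3.1K36M cells against 7819 and 7303 in H3.3 WT cells (-0.59 ± 0.04, adjusted p = 1.31e-09). The K36M lines overlapped for this gene. HMT siRNA cells had 5707, 5875 and 6137 against 5212, 4815 and 4678 in control siRNA cells, a small rise of 0.27 ± 0.04 (adjusted p = 1.12e-05), and the responses differed by -0.85 ± 0.07 (adjusted p = 3.87e-09).

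Klf15 rested on few reads in every group, at 46.7 and 54.4 in H3.3 WT, 26.3 and 20.9 in H3.3K36M, 16.7, 16.3 and 20.8 in control siRNA and 14.4, 8.95 and 13.4 in HMT siRNA cells. It fell in H3.3K36M cells (-1.07 ± 0.30, adjusted p = 0.00404), by -1.68 under quantile normalisation, and the siRNA change of -0.53 ± 0.25 was not called (adjusted p = 0.0736). That siRNA change was -0.34 without HMT siRNA replicate 2 (adjusted p = 0.274), and it was called without HMT siRNA replicate 1 (-0.65, adjusted p = 0.0489) and without trended, robust moderation (adjusted p = 0.0334). The control siRNA cells were the lower of the reference groups, and against them H3.3K36M cells were at 0.38 (adjusted p = 0.224), a reversed and uncalled difference. In H3.1K36M cells it was at 35.6 and 44.1 against 62.8 and 73.6 in H3.3 WT cells (-0.76 ± 0.22, adjusted p = 0.00553), a call that was lost without H3.1K36M replicate 1 (adjusted p = 0.0588).

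The response to H3.3K36M and the response to HMT siRNA differed for 8 members, 7 toward lower values in H3.3K36M cells and 1 (Ebf1) toward higher, where 54.9% of all genes tested differed, 27.5% higher and 27.4% lower. The members' median difference was -0.80, beside -0.0034 over all genes tested. Cebpb and Klf15 were the members whose difference was not called, although that of Klf15 was called under quantile normalisation (-1.29, adjusted p = 0.0101, against -0.54 with the deposited scaling). Between H3.1K36M and H3.3K36M cells, 2 members were higher, 3 lower and 5 not called, beside 68.2% of genes called (35.4% higher, 32.8% lower). Of those 5, Zfp423, Ebf1, Ebf2 and Klf15 passed the threshold in some alternative. With library totals made equal, 40.4% of the genes called in that comparison were higher, against 51.9% with the deposited scaling.

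**Figure D3:**
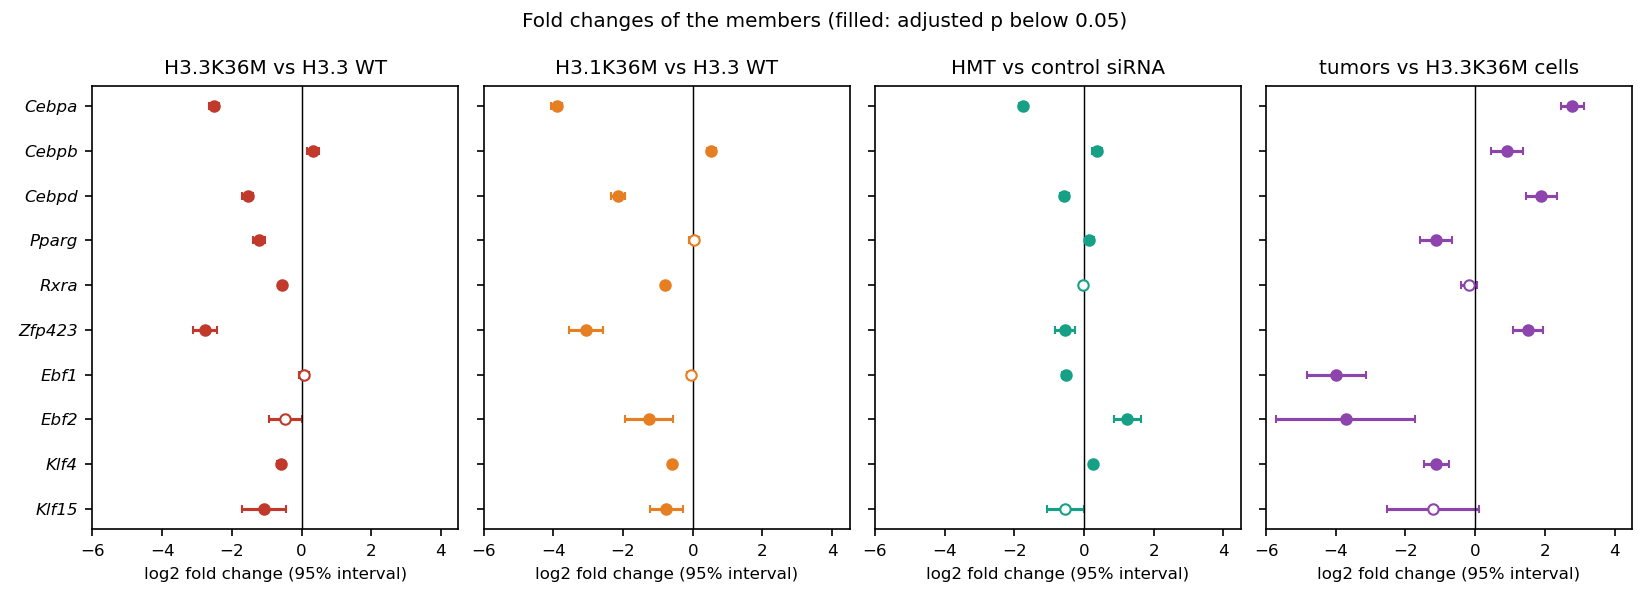
Fold change of each member (rows) in 4 comparisons, on the log2(value + 1) scale, with 95% intervals; filled points had an adjusted p below 0.05. Cebpa, Cebpd and Zfp423 lie left of 0 in the 3 culture comparisons and right of 0 in tumors; the position of Ebf2 in tumors rests on 9 estimated reads over 6 tumors and depends on the pseudocount.

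Genes downstream of the members and other regulators of the cascade were read as fixed lists. Over all genes tested, 70.8% were called in H3.3K36M cells, 65.4% with HMT siRNA and 79.5% in H3.1K36M cells. Counts near these shares say nothing particular about a list. Of 21 tested fat cell genes, 8 rose and 8 fell in H3.3K36M cells, with a median log2 fold change of -0.04. Among them were G0s2, an inhibitor of triglyceride breakdown (2988 and 3003 to 10.96 and 17.98; -7.64 ± 0.15), and Dgat2, which completes triglyceride synthesis (-3.33 ± 0.08). Angptl4, a secreted inhibitor of lipoprotein lipase, rose by 4.35 ± 0.10, and Fabp4, a fatty acid carrier, fell to 12.3 and 15.8 from 77.4 and 96.0 (-2.55 ± 0.25). With HMT siRNA, 3 of the 21 rose and 13 fell, with a median of -0.28. G0s2 fell by -2.89 ± 0.12 and Dgat2 by -1.59 ± 0.07, while Angptl4 rose by 1.09 ± 0.08. Fabp4 went the other way than in H3.3K36M cells, from 19.7 to 22.6 in control to 28.8 to 35.8 in HMT siRNA cells (0.58 ± 0.21, adjusted p = 0.0195), and its responses differed by -3.13 ± 0.32. In H3.1K36M cells, 7 of 22 rose and 12 fell, with a median of -0.26.

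Among 19 tested other activators and partners, 9 rose and 4 fell in H3.3K36M cells, 6 rose and 5 fell with HMT siRNA, and 5 rose and 9 fell in H3.1K36M cells. Zfp467, a zinc finger promoter of adipogenesis, was at 24.5 and 26.8 in H3.3 WT and 160 and 177 in H3.3K36M cells (2.67 ± 0.17), and Klf5, a Krüppel-like factor that acts on Pparg, rose by 2.31 ± 0.18. Of 17 inhibitors of adipogenesis, 6 rose and 7 fell in H3.3K36M cells, 6 rose and 7 fell with HMT siRNA, and 7 rose and 7 fell in H3.1K36M cells. Tcf7l2, a transcriptional effector of Wnt signalling, fell by -2.30 ± 0.06 in H3.3K36M and by -1.31 ± 0.05 in HMT siRNA cells. Dlk1, a preadipocyte factor that restrains differentiation, fell by -1.88 ± 0.29 and -2.37 ± 0.24 in the same comparisons. Control siRNA cells had Dlk1 at 21.3 to 39.5, below the 91.3 and 99.5 of H3.3K36M cells, so the direction in H3.3K36M cells turns with the reference. Some markers of macrophages, cells that also express C/EBP genes, were higher in the K36M and knockdown cultures. In H3.3K36M cells 5 of 6 tested markers rose, and the sum of 10 went from 219 to 227 in H3.3 WT cells to 929 to 946. Cd74 averaged 545 of that sum, while Ptprc averaged 4.27 and Emr1 1.30, and C1qa and C1qb were at 0. In H3.1K36M cells 6 of 8 rose. Among these were C1qa (22.3 and 43.1) and C1qb (11.2 and 22.0), which were at 0 in every other culture group and averaged 74870 and 54921 in tumors. The source of these reads in H3.1K36M libraries was not tested. With HMT siRNA 2 of 6 rose and none fell, and the sum was 453 to 479.5 against 281 to 360.3 in control siRNA cells. Cd14 averaged 241 in HMT siRNA and 117 in control siRNA cells, and Cd68 averaged 18.7 and 23.2. Any part of macrophages in the changes of the C/EBP genes was not tested.

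Some genes were close in pattern to the widest-ranging members across the 10 cultured libraries of the siRNA table. They were picked for the highest r among the 13186 genes of that fit, so a high r follows from the choice. Described by Pearson's r of log2 values over 10 points that share their 4 groups, the nearest to Cebpa were Papss2, Slc44a2 and Faah (0.998, 0.998 and 0.997). Zfp704, Pxdn and Epas1 (0.998, 0.997 and 0.997) were nearest to Zfp423. Add3, Aldh1l2 and Tll1 (0.996, 0.992 and 0.989) were nearest to Ebf2. Epas1, which encodes the hypoxia-inducible factor HIF-2α, averaged 1818 in H3.3 WT, 29.6 in H3.3K36M, 1214 in control siRNA and 458 in HMT siRNA cells.

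Tumors grown from H3.3K36M cells had another pattern of the same factors. Against the cultured H3.3K36M cells, 4 members rose, 4 fell and 2 were not called, beside 75.2% of 14842 genes called, 41% higher and 34.2% lower. The members' median was -0.64, beside 0.14 over all genes tested, which became -0.08 under quantile normalisation. Fewer cells of a type and less RNA per cell cannot be told apart in these bulk samples.

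The C/EBP genes and Zfp423 rose in tumors. Cebpa was between 1656 and 2531 (median 2089) against 310 and 302 in the cells (2.78 ± 0.15, adjusted p = 2.42e-07), and the tumors overlapped H3.3 WT cells of the same table. Cebpb was between 2602 and 4722 (median 3014) against 1810.1 and 1619 (0.91 ± 0.20, adjusted p = 0.00249). Cebpd was between 1081 and 1855 (median 1456) against 401 and 346 (1.90 ± 0.19, adjusted p = 2.07e-05). No tumor overlapped the cells for these genes, and the ratio of Cebpb to Cebpa was 1.24 to 1.87, between the reference and the altered cultures. Zfp423 was between 69.6 and 89.1 (median 78.5) against 27.2 and 26.6 (1.51 ± 0.19, adjusted p = 8.6e-05), still 40.2% of the H3.3 WT mean. Its rise was 0.40 under quantile normalisation (adjusted p = 0.147), so the direction held there without the call.

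Pparg, Ebf1, Ebf2 and Klf4 fell. Pparg was between 140 and 228 (median 181) against 373 and 422 (-1.12 ± 0.20, adjusted p = 0.000805), so Pparg and Cebpa went in opposite directions and their ratio was 0.0552 to 0.138. Ebf1 was between 69.8 and 238 (median 108) against 1705 and 1902 (-3.98 ± 0.38, adjusted p = 1.36e-05). Ebf2 was at 0 in 3 tumors and at 1.01, 4.33 and 5.73 in the others, from 1, 3 and 5 estimated reads, against 25.9 and 25.6 in the cells (adjusted p = 0.00383). Klf4 was between 1823 and 2772 (median 2251) against 4991 and 4879.8 (-1.11 ± 0.16, adjusted p = 0.00019). Every tumor lay below both cell libraries for these 4 genes. Rxra, between 2680.4 and 3279 against 3519.6 and 3406, had a change of -0.18 (95% interval -0.40 to 0.04, adjusted p = 0.126), and passed the threshold with equal library totals (-0.37, adjusted p = 0.0138). Klf15, between 4.05 and 30.3 against 34.7 and 27.5, had a change of -1.21 (95% interval -2.54 to 0.11, adjusted p = 0.087), and passed under quantile normalisation (-2.27, adjusted p = 0.00166) and without tumor 5 (-1.45, adjusted p = 0.031).

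Markers of other cell types moved with these changes. All 10 macrophage markers rose, with a sum of 236013 to 340544 in tumors against 1226 to 1248 in the cells, where C1qa and C1qb were at 0. Of 8 endothelial markers 7 rose, and their sum was 10713 to 30344 against 553 to 613. Of 5 keratinocyte markers 3 rose, with a sum of 161 to 28791 against 154 to 175, so that tumor 6 lay within the range of the cells. Of 6 skeletal muscle markers 5 rose, with a sum of 708 to 18084 against 342 to 370.2. Of 6 adipocyte-defining markers 5 rose, with a sum of 53.6 to 3740.1 against 0.949 to 2.31. The sum of 8 mesenchymal markers was 130837 to 166562 against 531982 to 577805, with 3 higher and 4 lower by the test. Most of that sum was collagen: Col1a1 averaged 72522 in tumors against 335376 in the cells, and Col1a2 40054 against 163821. Thy1 was among the 3 higher (1.42 ± 0.15), and Pdgfra was not called (-0.24, adjusted p = 0.224). The part of these cell types in the rise of the C/EBP genes and the fall of Pparg, Ebf1, Ebf2 and Klf4 was not tested.

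Single tumors show how these values sat together. Tumor 4 had the highest Cebpa, Cebpb, Cebpd and Zfp423, the lowest Pparg (140) and Ebf1 (69.8), the highest macrophage sum and the lowest adipocyte-defining sum. Tumor 6 had the lowest Cebpa, Cebpb, Cebpd and Klf4, the highest Pparg (228) and Ebf1 (238) and the lowest macrophage sum. It also had the highest B cell sum (1119, against 294 to 755 in the other tumors) and the highest skeletal muscle sum (18084). The endothelial sum was highest in tumor 6 (30344) and lowest in tumor 4 (10713). Cdh5 alone made up 22893.5 of the sum in tumor 6, beside a mean of 10113 over the tumors, so that maximum rested mostly on a single gene. Tumor 5 had the highest adipocyte-defining sum (3740.1) and the highest Klf15 (30.3), with Pparg at 195. From highest to lowest, the macrophage sum ran over tumors 4, 2, 5, 1, 3 and 6. Cebpa ran over tumors 4, 5, 1, 2, 3 and 6. Tumor 2 had a macrophage sum of 312578 with Cebpa at 2061, beside 289941 and 2360 in tumor 5. Any link between Cebpa and the macrophage sum was not tested.

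**Figure D4:**
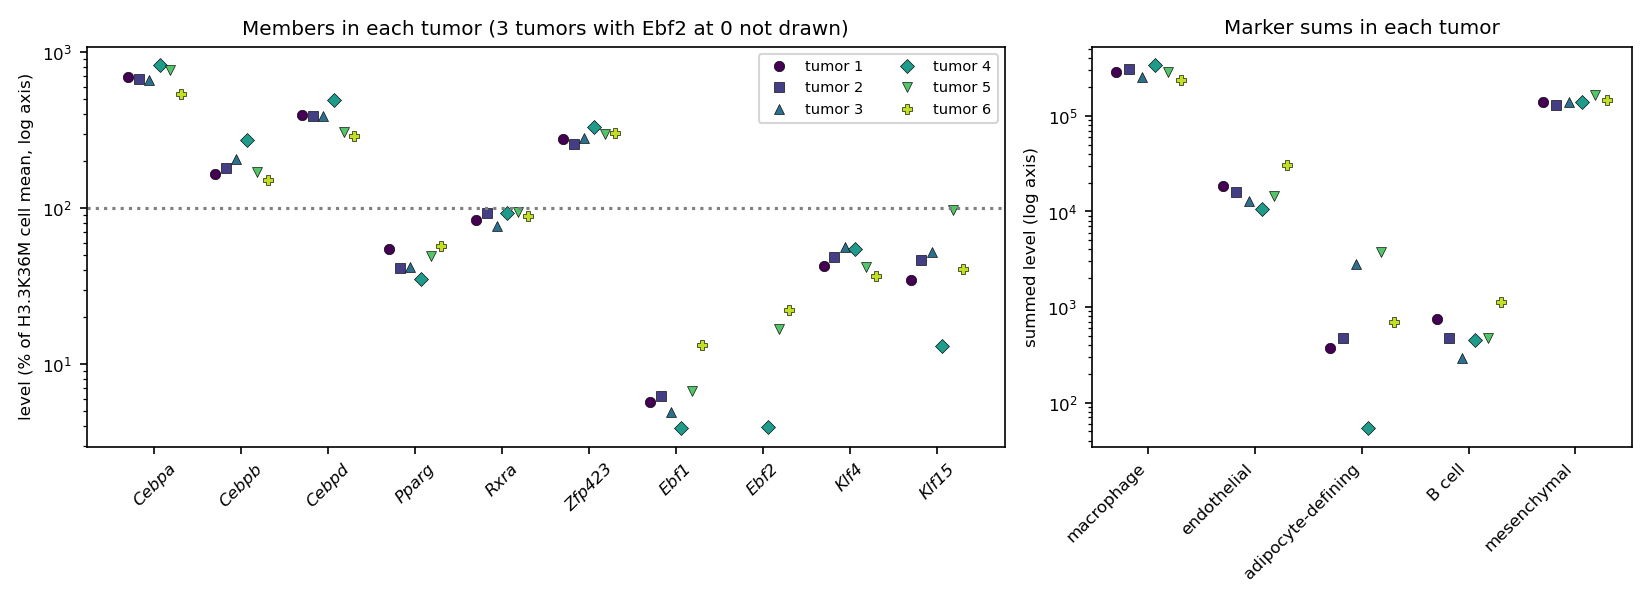
Left, level of each member in each tumor as a percentage of the mean of the cultured H3.3K36M cells (vertical log axis; the dotted line is 100%; tumors with Ebf2 at 0 are not drawn). Right, summed level of 5 marker lists per tumor (log axis); tumor 4 had the macrophage sum of 340544 and the adipocyte-defining sum of 53.6.

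The fat cell genes, other regulators and inhibitors also differed between tumors and cells, where 75.2% of all genes tested were called, 41% higher and 34.2% lower. Of 32 fat cell genes tested, 15 rose and 6 fell, with a median of 1.04, led by Cfd, a serine protease secreted by fat cells (8.92 ± 1.35), and Cd36, a fatty acid transporter also carried by macrophages (7.02 ± 0.38). Fabp4, at 580.0 to 3384 in tumors against 16.2 and 20.9 in the cells, rose by 6.10 ± 0.57. Of 19 activators and partners, 3 rose and 15 fell, with a median of -1.07. Nr1h3, which encodes the oxysterol receptor LXRα, rose by 4.29 ± 0.18 and Klf9 fell by -4.12 ± 0.21. Of 17 inhibitors, 3 rose and 10 fell, with a median of -0.39. Zfp521, a relative of Zfp423 that opposes EBF1, fell by -4.28 ± 0.36.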

How the data were processed

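The submitters' processing notes name Bowtie 1.0.0, RSEM 1.2.12 and the mm9 build. Each of the 3 tables that the authors deposited lists 20325 genes and holds a signal per library, estimated counts divided by a library factor (median normalisation, as the deposited tables name it). Only 35.3 to 56.2% of values above 0 came out as whole reads (tolerance 0.01), so no count test was used. The tables were scaled separately, and tests stay within a table; percentages of the H3.3 WT mean set levels side by side across them without a test.

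Log2(value + 1) was tested in limma 3.58.1 (R 4.3.3) with trended, robust moderation, two-sided, for genes at 10 or more in as many libraries as the smaller group, with Benjamini-Hochberg adjustment over all genes tested. The fits held 10 cultured libraries (H3.3K36M and siRNA comparisons), 6 (H3.1K36M) or 8 (tumors), and were tested on simulated data. Python 3.11.15 with pandas 2.3.3, numpy 2.4.6 and matplotlib 3.10.9 served the rest. The members and gene lists were chosen with earlier results of these data known. All members are named, with up to 4 genes per list by absolute fold change among those called (examples are drawn from these) and the 3 genes most like each of the 3 widest-ranging members. Promoter sequences are RefSeq's on GRCm38.p6, and 8 of 10 members matched by symbol.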

Additional observations from a re-analysis of the deposited data

Results flagged for a closer look

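Ebf1 in H3.3K36M tumor 6 was at 238, far from the other 5 tumors, of which the nearest was at 121 and the lowest at 69.8. The gap took up 0.695 of the range, above Dixon's critical value of 0.625 for 6 samples. This was 1 of 10 members examined, and chance alone sets apart about 1 group in 20.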

How the results depend on the processing

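Alternatives covered the pseudocount, the filter, scaling, moderation, the samples fitted, each library left out and the replicate block. Of 45 called member results, 6 lost their call in some alternative, and of 15 not called, 10 passed in some. Counts of members called ranged, with 1 library left out, over 8 to 9 (H3.3K36M against H3.3 WT), 7 to 8 (HMT siRNA), 8 to 8 (difference of responses), 7 to 8 (H3.1K36M against H3.3 WT), 4 to 6 (H3.1K36M against H3.3K36M) and 8 to 9 (tumors).

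Signs turned only for results that were not called, except that of Klf15. Against control siRNA cells as the reference, chosen after seeing the data, Ebf1 in H3.3K36M cells was at -0.32 and Klf15 at 0.38. The difference for Cebpb was 0.032 with quantile normalisation and 0.026 with equal totals; between the K36M lines, Zfp423 was at 0.38 with quantile normalisation, and Klf4 at -0.032 with quantile normalisation and -0.064 with equal totals. With 1 library left out, the ranges that crossed 0 were -0.00081 to 0.16 (Ebf1, H3.3K36M against H3.3 WT), -0.034 to 0.0049 (Rxra, HMT siRNA), -0.11 to 0.050 (Cebpb, difference), -0.12 to 0.020 (Ebf1, H3.1K36M against H3.3 WT), and, between the K36M lines, -0.59 to 0.094 (Zfp423) and -0.0029 to 0.047 (Klf4). The cause was not tested.

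Same-numbered libraries correlated at 0.0033 to 0.0962 in their deviations, under 0.1 in every pair, so the numbers were not taken to pair samples, and control siRNA replicate 2 correlated better with HMT siRNA replicate 1. With the replicate block, 9 members were called in H3.3K36M against H3.3 WT (Ebf2 added), 6 between the K36M lines (Ebf2 added), 9 in tumors (Klf15 added) and 8 in each other comparison. Ebf2, Klf15 and Zfp423 rest on few reads in most libraries.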
